A study of Mus musculus with 4 samples.

Results

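The Wnt-TCF pathway was followed through 10 genes that cover its intracellular core and its direct transcriptional read-out: β-catenin (*Ctnnb1*), the scaffolds *Axin1* and *Axin2*, the 4 TCF/LEF factors *Lef1*, *Tcf7*, *Tcf7l1* and *Tcf7l2*, and the target genes *Sp5*, *Nkd1* and *Cdx1*. They were chosen by symbol from the 48526 genes counted, all 10 had a row in every library, and 7 of them were among the 12883 genes that passed the filter on low counts. RNA-seq was available from mouse embryonic stem cells (ESCs) labelled wild type (WT) and from *Zfp296* CRISPR KO clone 2 (KO2). Each group had 2 biological replicates. The study's methods give R1 ESCs as the source of the KO lines, but name no line for the WT RNA samples in particular. KO2 is 1 monoclonal line, made with a guide RNA against the first exon of *Zfp296*, whereas nothing in the sources used here says that the WT cells were cloned. Per the study's methods, R1 ESCs grew on gelatine, in serum with leukaemia inhibitory factor (LIF), the MEK inhibitor PD0325901 and the GSK3 inhibitor CHIR99021. No other medium is named for the KO2 clone, and none for the RNA samples in particular. If this medium was used, an inhibitor that activates the pathway was present in both groups. Whether the pathway was active in these libraries was not tested.

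In the absence of a Wnt signal, Axin, APC, casein kinase 1 and GSK3 form the destruction complex, which phosphorylates β-catenin and marks it for degradation. A Wnt ligand bound to a Frizzled receptor and LRP5 or LRP6 halts this complex, and CHIR99021 reaches the same step by blocking GSK3. Stabilised β-catenin enters the nucleus and binds TCF/LEF factors on target genes. In mouse ESCs, TCF7L1 is known mainly as a repressor of pluripotency genes, a repression that β-catenin relieves, while TCF7 and LEF1 are known mainly as activators. β-catenin has a further pool at the membrane, where it joins cadherins to the actin cytoskeleton.

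Counts on genes came to 2829914 and 4334499 for WT and to 7470907 and 7437294 for KO2, replicates 1 and 2 each, so a count of 3 stands for 1.12, 0.709, 0.38 and 0.401 CPM (counts scaled to a common TMM-adjusted library size). The targeted gene *Zfp296* had 31 counts in each library labelled WT and 416 and 282 in the libraries labelled KO2, that is 11.6 and 7.33 against 52.8 and 37.7 CPM. It was thus higher in the libraries labelled KO2 (log2 fold change 2.31, SE 0.29, adjusted p = 4.64e-05, edgeR's quasi-likelihood test), the opposite of what the label alone would give, although without a filter its adjusted p was 0.0573. A small deletion or insertion in exon 1 need not remove the transcript, and counts over the whole gene do not show it, so these counts do not check the genotype, and WT and KO2 stand below for the libraries labelled so. If the labels had been exchanged, every direction given here would turn. The Y-linked genes *Eif2s3y*, *Ddx3y* and *Uty* had at most 1 count in a WT library and at least 723 in a KO2 library. The groups thus differ in more than the targeted gene. The cause of the Y-linked difference was not tested, and its part in the results cannot be told apart from that of the genotype. ESC markers were high in all 4 libraries, with a summed level of 5841 to 6190 CPM over 10 genes. The sum does not show single genes. Of the 10, 1 (*Sox2*) had an adjusted p under 0.05 (edgeR) and was lower in KO2, beside 3.04% of all tested genes. Their log2 fold changes ran from -1.39 to 0.35, with a median of 0.02 and 5 of 10 negative. Feeder fibroblast markers summed to 3.35 to 13.2 CPM over 8 genes, with *Postn*, *Lum* and *Dcn* at 0. Neural markers (7 of 8 with a row) summed to 147 and 143 CPM in WT and to 193 and 185 CPM in KO2, and 8 trophoblast markers to 95.4 and 97.1 CPM in WT and to 134 and 152 CPM in KO2, with *Tpbpa* at 0. Most of the trophoblast sum was *Tfap2c*, which ESCs also express (90.1 ± 1.14 and 135 ± 8.07 CPM, SD, n = 2), and most of the neural sum was *Nes* (92.1 ± 7.89 and 117 ± 4.82 CPM, adjusted p = 0.158, edgeR). The part of these markers in the results was not tested.

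None of the 7 tested genes differed between KO2 and WT past the threshold, and *Lef1*, *Sp5* and *Nkd1* were not tested. In bulk RNA a change in the share of cells that express a gene and a change in its RNA per cell cannot be told apart. When p-values of edgeR's quasi-likelihood test were adjusted over all tested genes (Benjamini-Hochberg), 0 of the 7 members that passed the filter were called at 0.05, compared to 5.64% of all tested genes. At an unadjusted p under 0.05 there were 2 (*Ctnnb1* and *Tcf7l2*), compared to 19.4% of all tested genes, and DESeq2 called 0, compared to 3.88%. Nor was any of them called under the other settings, which called 6.23% of tested genes with RLE normalization, 1.27% with ERCC spike-ins, 0.24% without a filter, 7.03% with at least 10 counts in every sample (a filter that *Tcf7l2* and *Cdx1* did not pass, so that they were not tested there), 5.09% with the older quasi-likelihood method and 7.34% with a replicate block. Without WT replicate 1, WT replicate 2, KO2 replicate 1 or KO2 replicate 2 the share was 1.88%, 2.95%, 3.61% and 5.35%. Their adjusted p-values ran from 0.207 to 0.921 in the edgeR test. Of the 7, 6 had a negative and 1 a positive log2 fold change, with a median of -0.21, beside 0.01 over all tested genes. In 4 of the 7 the KO2 and WT libraries did not overlap, *Ctnnb1*, *Axin2* and *Tcf7* being lower and *Tcf7l2* higher in both KO2 libraries, which was also the case for 48.8% of all tested genes (25.4% with KO2 above and 23.4% with KO2 below).

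**Figure D1:**
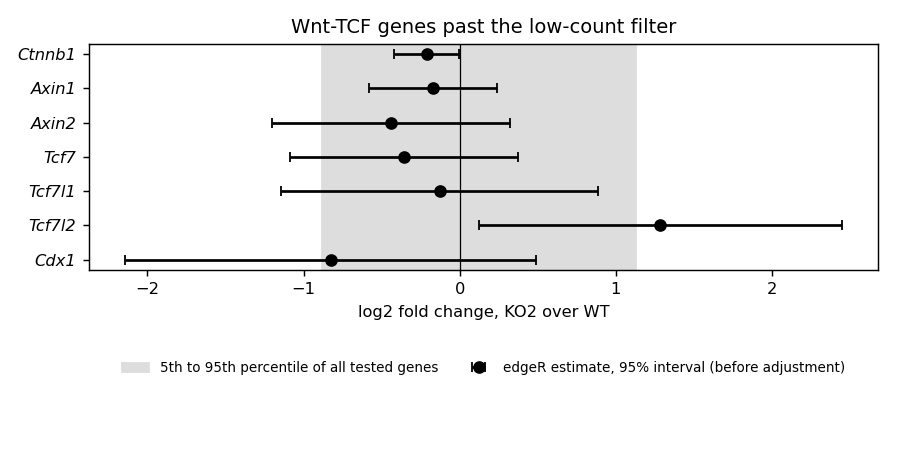
Log2 fold change between KO2 and WT (x axis) of the 7 Wnt-TCF genes that passed the low-count filter, as the edgeR estimate with its 95% interval before adjustment, over a grey band from the 5th to the 95th percentile of all tested genes (-0.88 to 1.13). The intervals of *Ctnnb1* (just below 0) and *Tcf7l2* (above 0) leave out 0, but neither gene passed the adjusted threshold, and the interval of *Cdx1* is the widest.

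*Ctnnb1* (ENSMUSG00000006932, plus strand of chromosome 9, 120838334 to 120869625 in mm9), which encodes the co-activator itself, stood at 782.2 and 777.9 CPM in WT, against 700.1 and 647 CPM in KO2. Both KO2 libraries were lower, by a difference that was small but larger than the one between the replicates of either group. The KO2 replicates lay further apart than the WT replicates. The means were 780.1 ± 3.09 and 673.5 ± 37.6 CPM (SD, n = 2), a fold of 0.863 with a 95% interval of 0.746 to 0.999 and an adjusted p of 0.255 (edgeR). This was the best measured of the 10 genes, with 2099 to 5521 counts per library. Its exons share 240 bases with exons of *Ulk4* on the other strand, and since the counting setting for strand is not given in the sources used here, reads from this stretch cannot be assigned with certainty.

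*Axin1* (ENSMUSG00000024182, plus strand of chromosome 17, 26275631 to 26332756) encodes the limiting scaffold of the destruction complex. It had 55.9 and 46.1 CPM in WT and 37.5 and 52.4 CPM in KO2, so that the groups overlapped. The fold was 0.888 (95% interval 0.669 to 1.18, adjusted p = 0.697, edgeR).

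*Axin2* (ENSMUSG00000000142, plus strand of chromosome 11, 108781663 to 108812097) encodes the second scaffold and is a direct target that feeds back on the pathway, which makes it a common reporter of Wnt activity. It had 10.1 and 12.5 CPM in WT, from 27 and 53 counts, and 8.37 and 8.55 CPM in KO2, from 66 and 64 counts. Both KO2 libraries lay below both WT libraries, but the fold of 0.737 had a 95% interval from 0.434 to 1.25 (adjusted p = 0.56, edgeR). At this depth the interval covers a marked loss as well as a modest gain. Its exons share 209 bases with *Gm11670* on the other strand.

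Among the TCF/LEF factors, *Tcf7* (ENSMUSG00000000782, minus strand of chromosome 11, 52065873 to 52096681) had 12.7 and 13 CPM in WT and 8.5 and 11.6 CPM in KO2. The lower KO2 values gave a fold of 0.781 (95% interval 0.471 to 1.29, adjusted p = 0.639, edgeR). *Tcf7l1* (ENSMUSG00000055799, minus strand of chromosome 6, 72576372 to 72739248), the repressor of the family, had 9.69 and 4.25 CPM in WT and 5.96 and 5.88 CPM in KO2. Here the WT replicates lay on either side of both KO2 replicates, and the fold was 0.915 (95% interval 0.453 to 1.85, adjusted p = 0.921, edgeR). Its exons share 179 bases with *Gm15401* on the other strand.

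*Tcf7l2* (ENSMUSG00000024985, plus strand of chromosome 19, 55816300 to 56008144), a factor with activating and repressing isoforms, was the only tested gene of the 7 with higher values in KO2. It gave 10 and 9 counts for WT, against 49 and 55 for the more deeply sequenced KO2 libraries, that is 3.73 and 2.13 against 6.21 and 7.35 CPM. The fold was 2.44 with a 95% interval of 1.09 to 5.47, and the adjusted p was 0.207 (edgeR), with a range of 0.207 to 0.512 over the alternatives. Counts per gene do not separate isoforms that keep or lack the β-catenin binding domain in this gene, *Tcf7* or *Lef1*.

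*Lef1* (ENSMUSG00000027985, plus strand of chromosome 3, 130813389 to 130927274) had 0 counts in each of the 4 libraries over 8654 bases of merged exons. An expected count of up to 3 can still give a count of 0. A level of up to 1.12, 0.709, 0.38 and 0.401 CPM in WT replicates 1 and 2 and KO2 replicates 1 and 2 could thus have been missed. These limits hold for each library by itself, and the 4 libraries together set a lower one. A total of 4801 of the 20856 annotated protein-coding genes were likewise at 0 in all 4 libraries. *Lef1* is itself known as a Wnt target in many tissues.

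Of the other targets, *Sp5* and *Nkd1* were near the limit of detection. *Sp5* (ENSMUSG00000075304, plus strand of chromosome 2, 70312980 to 70315786), a zinc finger factor and a direct target of β-catenin, gave 6 and 1 counts for WT, against 1 and 2 for KO2. The ratio of KO2 to WT over the summed counts was 0.193 with an exact 95% interval of 0.0322 to 0.845, which covers counting error only, and 6 of the 7 WT counts came from WT replicate 1. *Nkd1* (ENSMUSG00000031661, plus strand of chromosome 8, 91045243 to 91118786), which encodes a Dishevelled-binding feedback inhibitor, gave 1 count in each WT library, against 3 and 11 for KO2, a ratio of 3.15 (exact 95% interval 0.724 to 28.6, counting error only). Neither gene passed the filter. *Cdx1* (ENSMUSG00000024619, minus strand of chromosome 18, 61178516 to 61195853), a homeobox gene of the posterior body axis, did pass but varied widely, with 1.86 and 7.09 CPM in WT and 3.8 and 1.74 CPM in KO2. The spread within each group exceeded the difference between them, and the fold of 0.564 had a 95% interval of 0.226 to 1.4 (adjusted p = 0.519, edgeR).

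To compare the genes with each other, CPM were divided by the length of the merged exons in kilobases. *Ctnnb1* was highest, at 153 ± 0.61 in WT and 132 ± 7.4 in KO2 (SD, n = 2), and stood 11.6 ± 2.13 times above *Axin1* (SD over the 4 libraries), which had 13.3 ± 1.8 and 11.7 ± 2.7. *Tcf7* followed at 4.6 ± 0.082 and 3.61 ± 0.79, below every library of *Axin1*. *Cdx1* (2.56 and 1.58), *Tcf7l1* (2.1 and 1.78) and *Axin2* (2.05 and 1.54) came next, and the order of these 3 differed between libraries. *Cdx1* lay below *Tcf7* in every library, although *Cdx1* in WT replicate 2 (4.05) exceeded *Tcf7* in KO2 replicate 1 (3.05). The means of *Sp5* (0.589 and 0.0938), *Tcf7l2* (0.335 and 0.776) and *Nkd1* (0.0683 and 0.208) were lower, and *Lef1* was at 0. *Tcf7l2* lay above *Nkd1* in every library. *Sp5* lay above *Tcf7l2* only in WT replicate 1 (1.06 against 0.426), where it equalled *Cdx1* (1.06). It lay above *Nkd1* in both WT libraries and below it in both KO2 libraries. With the longest transcript in place of the merged exons, *Tcf7l2* came to 0.681 and 1.58.

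**Figure D2:**
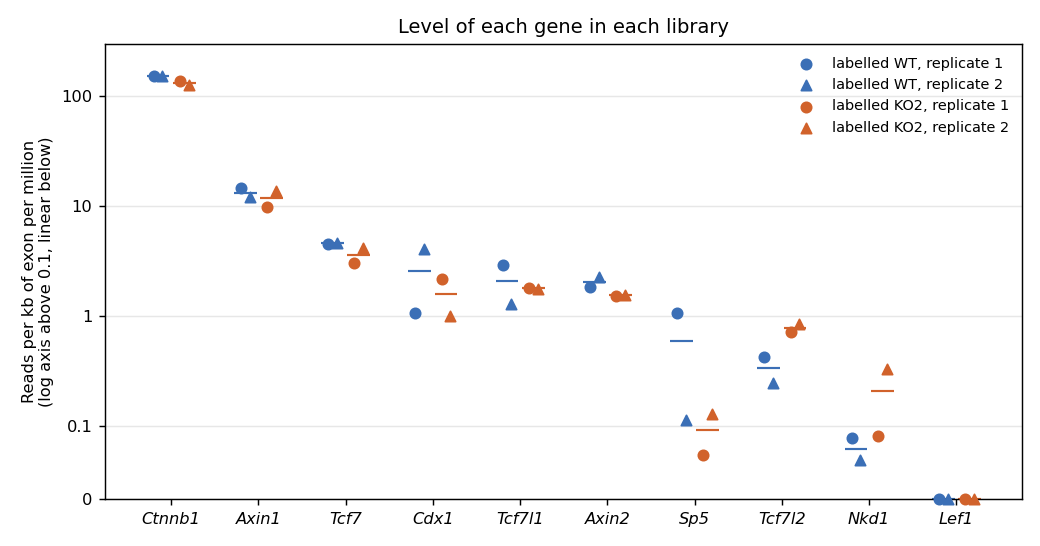
CPM per kilobase of merged exon (y axis, logarithmic above 0.1 and linear below) of the 10 Wnt-TCF genes in each of the 4 libraries, as points with short lines at the group means, ordered by the WT mean. *Ctnnb1* lies above 100 in every library, *Axin1* at 9.8 to 14.6, and *Lef1* at 0.

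Within the TCF/LEF family, *Tcf7* made up 57.6% and 75.4% of the summed level per length in WT and 54.9% and 61.5% in KO2. *Tcf7l1* made up 37% and 20.7% in WT and 32.3% and 26.1% in KO2. The share of *Tcf7l2* was 5.41% and 3.94% in WT and 12.8% and 12.4% in KO2, so it was higher in both KO2 libraries, from the few counts given above, while *Lef1* contributed nothing detectable. The level of *Ctnnb1* was 18.7 to 24.7 times that of the 4 factors together, and the groups overlapped in this ratio. The shares and the ratio depend on the length used. With the longest transcript, the WT and KO2 means were 5.05 and 3.96 for *Tcf7* and 2.29 and 1.95 for *Tcf7l1*. They were 0.681 and 1.58 for *Tcf7l2*, a larger share in both groups, and 215 and 186 for *Ctnnb1*.

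The median log2 fold change of all tested genes on the chromosomes of the 10 genes lay between -0.05 (chromosome 3, 554 genes) and 0.06 (chromosome 17, 560 genes).

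The start sites were searched for the core sequence that TCF/LEF factors recognise, on both strands, as 4 short motifs, in RefSeq promoter windows (GRCm38.p6) of 250 bases before to 50 bases after each start. Windows were at hand for 8 of the 10 genes, 14 in all, not for *Axin1* and *Cdx1*. A match was found in 3 of the 14 windows, in *Sp5*, *Tcf7l2* and *Lef1*, compared to 16.9% of all 32851 windows. Each stretch of 30 bases printed here, on the strand of the gene and with the match in capitals, shows such a match and its surroundings, and was placed on mm9 by its single exact match on the chromosome of the gene. The last belongs to *Tnfrsf19*, a Wnt target described below, which was picked after its values were seen. No stretches are printed for the other called genes of the wider lists. The *Tnfrsf19* match is of the same kind as the second in *Sp5*, and no link to its RNA level was tested.
*Sp5*, chr2:70312747-70312776, plus strand: ttcctagagatAACAAAGacactttgtcac
*Sp5*, chr2:70312865-70312894, plus strand: ggcaaggccccCTTTGATcaggaaaatcca
*Tcf7l2*, chr19:55969786-55969815, plus strand: aaaatatcaggCTTTGTTcttttgattgaa
*Lef1*, chr3:130859054-130859083, plus strand: caacctcagaaTACAAAGtaggattgcatt
*Tnfrsf19*, chr14:61657008-61657037, minus strand: ctgaatgggggATCAAAGtgacaaactaga

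The *Sp5* stretches lie upstream of the gene, outside any annotated gene, with the first base of the match at -222 and -104 from the start. Those of *Tcf7l2*, *Lef1* and *Tnfrsf19* lie in introns, ahead of internal starts. The motif CTTTGAT or its reverse complement was held by 3.73% of all windows, the motif CTTTGAA by 5.14%, the motif CTTTGTT by 5.85% and the motif CTTTGTA by 3.63%. The motifs overlap in their first letters but no stretch can match more than 1 of them at the same place. These matches are letters only and show no binding, and the windows of *Axin2*, *Nkd1*, *Ctnnb1*, *Tcf7* and *Tcf7l1* held none of them.

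Around this core, 152 further genes in 11 lists by role were counted, of which 94 were tested. Of these, 8 had an adjusted p under 0.05 with edgeR's quasi-likelihood test (8.51%, beside 5.64% of all tested genes), 6 lower and 2 higher in KO2. Of all tested genes, 3.04% were called lower and 2.6% higher, the shares beside which the calls in each list below are to be read. The median log2 fold change of the 94 genes was -0.11, beside 0.01 over all tested genes. With ERCC normalization only *Tnfrsf19* of the 8 stayed under 0.05, and without a filter only *Sox2* did.

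At the cell surface, 2 of the 13 tested receptors and co-receptors were called lower in KO2 (15.4%), beside 3.04% of all tested genes. The list had a median log2 fold change of -0.53, beside 0.01 over all tested genes, with 12 of 13 negative. The 95% intervals before adjustment left out 0 for *Fzd5*, *Fzd10*, *Lrp5*, *Ror2* and *Ptk7* and held 0 for the rest of the list. *Fzd5*, a Frizzled receptor, had 101 and 119 CPM in WT and 60.2 and 67.8 CPM in KO2, a log2 fold change of -0.79 (SE 0.15, adjusted p = 0.00286, edgeR). *Ptk7*, a pseudokinase co-receptor, had 63.4 and 71.4 CPM in WT and 42.4 and 48 CPM in KO2 (log2 fold change -0.58, SE 0.16, adjusted p = 0.0442, edgeR). In both, the groups were apart by more than the replicates, but the call of *Fzd5* was lost without WT replicate 2 (adjusted p = 0.0503) and that of *Ptk7* without WT replicate 1, WT replicate 2 or KO2 replicate 1 (0.0861, 0.188 and 0.252, edgeR). *Ptk7* also lost its call with DESeq2 (adjusted p = 0.143), with edgeR's older quasi-likelihood method (0.0571) and with the stricter filter (0.0502), and was called in 3 of 11 alternatives.

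Of the 9 genes of the R-spondin module, which amplifies Wnt reception, 2 were tested. *Lgr4*, a receptor for R-spondins, had 105 and 106 CPM in WT and 69.6 and 65.2 CPM in KO2, and fell by 0.64 on the log2 scale (SE 0.14, adjusted p = 0.0091, edgeR). The adjusted p was 0.0567 without WT replicate 1 and 0.0503 without WT replicate 2. *Znrf3*, the E3 ligase gene that limits Frizzled receptors and is also a target, was the other and is named after its values were seen, with means of 22.1 ± 1.19 and 23 ± 0.341 CPM in WT and KO2 (SD, n = 2) and an edgeR adjusted p of 0.941.

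Of the 7 tested extracellular inhibitors, 1 fell and 1 rose. *Sfrp1*, a secreted Wnt antagonist, had 133 and 164 CPM in WT and 80.9 and 77.5 CPM in KO2 (log2 fold change -0.91, SE 0.14, adjusted p = 0.000477, edgeR), and stayed under 0.05 in each fit without 1 library. *Frzb*, another antagonist of this family, gave 7 and 4 counts for WT, against 58 and 55 for KO2, a log2 fold change of 2.18 (SE 0.63, adjusted p = 0.0479, edgeR). Its size rests on the few WT counts, and its adjusted p was 0.0765, 0.27, 0.123 and 0.0883 without WT replicates 1 and 2 and KO2 replicates 1 and 2. It was 0.151 with DESeq2 and 0.0524 with edgeR's older quasi-likelihood method, and the gene was called in 2 of the 10 alternatives that tested it.

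Inside the cell, 1 of 14 tested genes of the destruction complex rose. *Btrc*, which encodes the F-box protein that recognises phosphorylated β-catenin, had 73.4 and 72.8 CPM in WT and 108 and 114 CPM in KO2 (log2 fold change 0.6, SE 0.14, adjusted p = 0.0137, edgeR). Its call was lost without WT replicate 1, WT replicate 2 or KO2 replicate 2 (adjusted p = 0.0707, 0.0637 and 0.0666). The kinases that CHIR99021 inhibits did not pass the test, with *Gsk3a* at 26.4 ± 11.2 and 23.5 ± 5.66 CPM and *Gsk3b* at 133 ± 30.8 and 142 ± 9.99 CPM in WT and KO2 (SD, n = 2), where edgeR gave adjusted p-values of 0.884 and 0.828. None of the 5 tested genes of Dishevelled and its regulators, of which *Ccdc88c* had the highest level per length, and none of the 21 tested nuclear co-factors, led by the short Groucho-type protein gene *Tle5*, had an adjusted p under 0.05.

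Of the 19 Wnt ligands, 17 did not pass the filter, with at most 12 counts in a library, and *Wnt1*, *Wnt7a*, *Wnt8b* and *Wnt9b* were at 0. Per length, *Wnt5b* had the highest WT mean (0.587), from 7 and 2 counts, but in WT replicate 2 it lay below *Wnt6* and *Wnt7b* (0.18, 0.686 and 0.589). In KO2 *Wnt7b* had the highest mean (1.73, beside 0.426 for *Wnt5b*). The 2 tested ligands, *Wnt7b* and *Wnt11*, had no adjusted p under 0.05. Nor did the ligand carrier gene *Wls* (17 ± 2.4 and 11.8 ± 3.66 CPM, SD, n = 2, adjusted p = 0.384, edgeR).

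Of 28 further target genes, 12 were tested and 1 fell. *Tnfrsf19*, a receptor of the TNF family known as a Wnt target, gave 26 and 39 counts for WT, against 11 in each of the deeper KO2 libraries, that is 9.69 and 9.22 against 1.39 and 1.47 CPM. It fell by 2.70 on the log2 scale (SE 0.54, adjusted p = 0.00487, edgeR), with an adjusted p of 0.0557 without WT replicate 1 and 0.0539 without WT replicate 2. The mesoderm factors *T* and *Mesp1* and the adhesion receptor *Cd44*, named after their values were seen, had no counts in any library. The list had a median log2 fold change of -0.17.

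Of 10 pluripotency genes known to be bound by TCF7L1, all 10 were tested and 1, *Sox2*, fell, with 873 and 806 CPM in WT and 483 and 489 CPM in KO2 (log2 fold change -0.79, adjusted p = 7.82e-05, edgeR). *Esrrb*, a main target of TCF7L1 repression that was named after its values were seen, had 238 ± 23.9 and 236 ± 38.8 CPM (SD, n = 2, adjusted p = 0.973, edgeR). Of the 7 tested cadherin junction partners of β-catenin, none had an adjusted p under 0.05, and *Ctnna1*, the α-catenin gene and the most abundant per length, had 546 ± 26.4 and 591 ± 1.64 CPM (SD, n = 2, adjusted p = 0.6, edgeR).

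**Figure D3:**
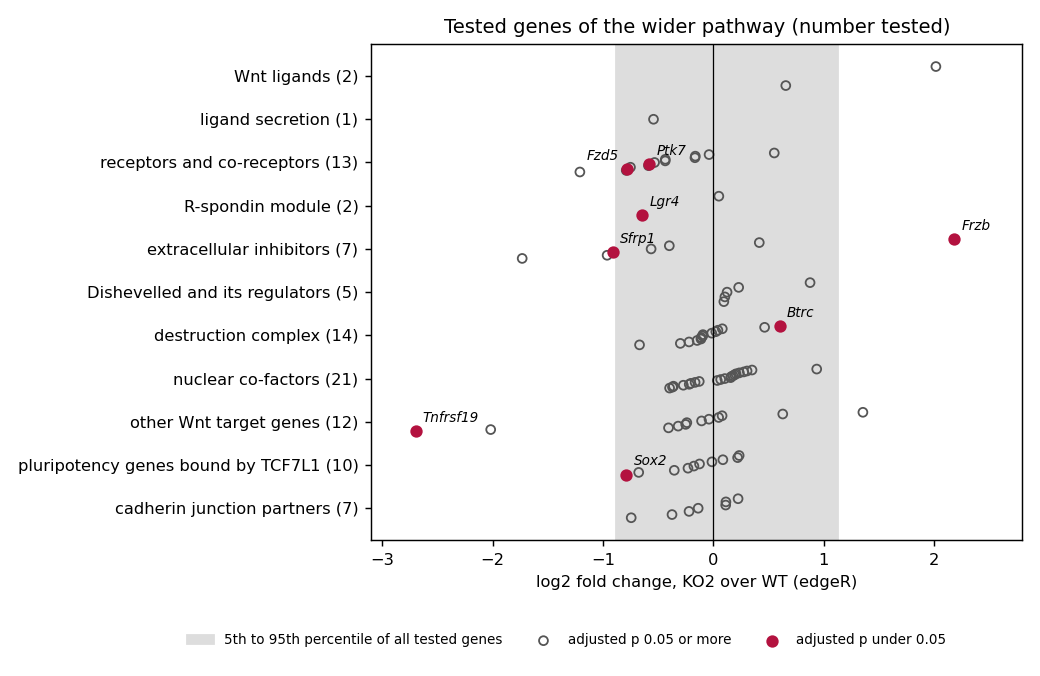
Log2 fold change between KO2 and WT (x axis, edgeR) of each tested gene in 11 lists of the wider Wnt pathway, with the number tested in brackets; filled points had an adjusted p under 0.05, and the grey band spans the 5th to the 95th percentile of all tested genes. The 6 filled points on the left are *Fzd5*, *Ptk7*, *Lgr4*, *Sfrp1*, *Tnfrsf19* and *Sox2*, and the 2 on the right are *Frzb* and *Btrc*.

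**Figure D4:**
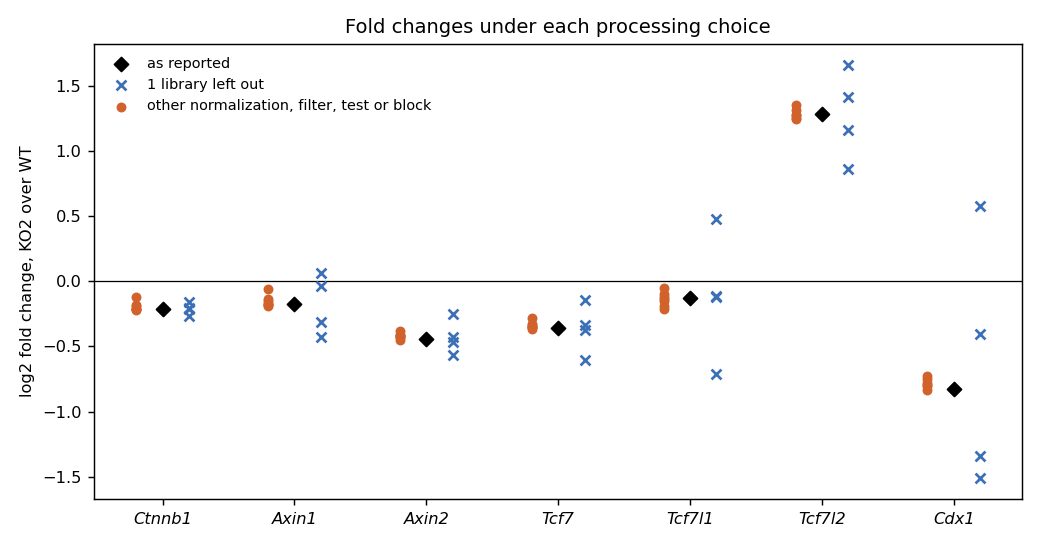
Log2 fold change between KO2 and WT (y axis) of the 7 tested Wnt-TCF genes as reported (diamonds), with 1 library left out (crosses) and with another normalization, filter, test or block (circles). *Tcf7l2* stays above 0 throughout, at 0.86 to 1.66, while *Axin1*, *Tcf7l1* and *Cdx1* cross 0 when a single library is left out.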

How the data were processed

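RNA was depleted of ribosomal RNA and made into strand-specific libraries. The values deposited by the authors are raw read counts per gene, from HISAT2 alignments to mm9 and HTSeq. Their processing notes also name DESeq2. Versions, annotation and strand setting are not given in the sources used here. The 92 ERCC spike-in rows and 5 summary rows (52.9% to 58.8% of all counts per library) were left out of library sizes. Genes were kept by filterByExpr (minimum count 10, minimum total 15), normalized by TMM and tested with edgeR 4.0.16 (glmQLFit with legacy=FALSE, glmQLFTest, R 4.3.3) for KO2 against WT, with Benjamini-Hochberg adjustment over 12883 genes at 0.05. Symbols, coordinates and exon lengths came from GENCODE M1 (mm9). The 10 genes, the lists and the alternatives were chosen with earlier results of these data known. Named were the 10 genes, every called gene of the lists, the most abundant gene of lists without calls, *Gsk3a*, *Gsk3b*, *Zfp296* and 3 Y-linked genes. Other genes were named after their values were seen. All listed genes but the neural marker *Sox1* were matched by symbol. The fit was tested on simulated counts.

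Alternatives were RLE or ERCC normalization, no or a stricter filter (10 counts in every sample), the replicate number as a block, DESeq2 1.42.0, edgeR's older quasi-likelihood method, other lengths or library totals for levels, and leaving out each replicate. Same-numbered replicates did not deviate together across genes (correlation -0.00658), and no source says that a number marks a shared day, so the fit without the block was reported. P-values measure the spread between 2 biological replicates of each label, as the labels call them. For KO2 they stem from 1 clone, so clone and genotype cannot be told apart. Depth and the RNA of the Y-linked genes differ between the groups in the same way.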

Additional observations from a re-analysis of the deposited data

How the results depend on the processing

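None of the 7 tested Wnt-TCF genes was called in any setting that tested it (*Tcf7l2* and *Cdx1* were not tested with at least 10 counts in every sample), and 72 of their 75 log2 fold changes kept their direction. The 3 that did not were *Axin1* without KO2 replicate 1 (0.061, with a range of -0.43 to 0.061 over the fits without 1 replicate), *Tcf7l1* without WT replicate 1 (0.48, range -0.71 to 0.48) and *Cdx1* without WT replicate 2 (0.58, range -1.51 to 0.58). Each such fit leaves 1 sample in a group, which is assumed to vary like the other group. The number of genes called over the whole table moved from 726 to 163 with ERCC normalization, to 61 with no filter and to 450 with DESeq2, and lay between 270 and 691 without 1 replicate, lowest without WT replicate 1. The cause was not tested. With ERCC normalization the receptors, the R-spondin module, the extracellular inhibitors, the destruction complex and the TCF7L1-bound pluripotency genes had 0 calls, and *Tnfrsf19* kept its call (adjusted p = 0.00403, edgeR). With no filter the first 4 of these and the other target genes had 0, while *Sox2* stayed called. With at least 10 counts in every sample there were 1 call among receptors and 2 among other targets. The older quasi-likelihood method gave 1 among receptors and 1 among inhibitors. DESeq2 gave 1 among receptors, 1 among inhibitors, 2 in the destruction complex and 1 among cadherin partners, and RLE normalization 1 among cadherin partners, 3 among receptors and 3 among inhibitors. Without 1 replicate, the calls ranged from 0 to 2 for receptors, 0 to 1 for the R-spondin module, 1 to 1 for inhibitors, 0 to 1 for the destruction complex, 0 to 1 for other targets and 0 to 1 for cadherin partners. With the replicate block, 946 genes were called in all, and within the lists there were 1 Wnt ligand (*Wnt7b*), 2 receptors, 1 gene of the R-spondin module, 3 inhibitors, 2 genes of the destruction complex, 2 other targets and 1 pluripotency gene. The block changed no call among the 7 tested Wnt-TCF genes and kept the 8 called genes named above. The level of *Ctnnb1* per length over that of *Axin1* was 16.1 with the longest transcript in place of the merged exons. Depth limits *Lef1*, *Sp5*, *Nkd1* and most ligands, for which neither a change nor its absence could be shown.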

Other observations

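Several genes of the wider pathway came close to the threshold without passing it, and were picked after their values were seen. *Lrp5*, which encodes a co-receptor for Wnt ligands, had 31.7 and 31 CPM in WT and 18 and 18.2 CPM in KO2 (log2 fold change -0.79, SE 0.23, adjusted p = 0.0509, edgeR's quasi-likelihood test, 0.0421 to 0.567 over the alternatives), whereas its relative *Lrp6* had 263 ± 2.31 and 235 ± 2.87 CPM (SD, n = 2, adjusted p = 0.456, edgeR). *Wnt7b* gave 2 and 11 counts for WT, against 56 and 61 for KO2 (log2 fold change 2.02, SE 0.61, adjusted p = 0.0577, edgeR, 0.0226 to 0.252 over the alternatives). *Cdh1*, the E-cadherin gene, had 628 ± 86.9 and 485 ± 27.7 CPM (SD, n = 2, adjusted p = 0.0575, edgeR, 0.0345 to 1 over the alternatives). *Sfrp4*, a secreted antagonist, gave 15 and 43 counts for WT, against 16 and 22 for KO2 (log2 fold change -1.73, SE 0.52, adjusted p = 0.0591, edgeR, 0.0289 to 0.425 over the alternatives). *Fst*, which encodes the activin antagonist follistatin, gave 13 and 24 counts for WT, against 10 in each KO2 library (log2 fold change -2.02, SE 0.62, adjusted p = 0.0653, edgeR, 0.0221 to 0.287 over the alternatives).

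Primitive endoderm markers summed to 3.07 to 10.4 CPM (3 of 8 tested, *Afp* at 0) and mesoderm markers to 13.4 to 28.8 CPM (3 of 8 tested, *T* and *Mesp1* at 0). None of these, nor any of the 2 neural and 1 fibroblast markers tested, had an adjusted p under 0.05 with edgeR. Of 8 trophoblast markers 2 were tested and 1, *Tfap2c*, which ESCs also express, was called higher in KO2 (adjusted p = 0.012, edgeR, 0.00278 to 0.531 over the alternatives, of which 6 of 11 kept the call).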
